A study of Mus musculus with 9 samples.

Results

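Transcripts of the nuclear-encoded subunits of respiratory chain complexes II, III and IV and of the ATP synthase (complex V) were examined in adult mouse hearts. The genes were chosen by symbol alone (Sdha to Sdhd, all Uqcr genes, Cyc1, Cox4 to Cox8 and all Atp5 genes), which gave 47 of the 15779 genes in the deposited tables: 4 of complex II, 9 of complex III, 17 of complex IV and 17 of complex V. Another 2 symbols with a dot were left out, and none of the 47 genes was absent from any of the 3 full tables.

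There were 9 heart samples of C57BL/6J mice in 3 groups of 3. Wild-type mice received saline, mice homozygous for the Mybpc3 mutation R946X (Mybpc3R946X/R946X) received saline, and mice of the same mutant genotype received exABE8e at high dose. Mybpc3 encodes cardiac myosin-binding protein C of the sarcomere, and R946X is a premature stop codon. The labels name exABE8e without defining it, and call the hearts adult, with no sex, exact age or dose. The series' design text describes adenine base editors, which turn A into G at a guided site, carried to cardiomyocytes by an adeno-associated virus (AAV9). Heart tissue was used and polyA RNA was sequenced, so fewer cells of a type and less RNA per cell cannot be told apart. The labels do not say whether the samples of a group were separate animals. The p-values judge differences against variation between these samples, which may not be variation between animals.

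The mitochondrial respiratory chain passes electrons from nutrients to oxygen and pumps protons across the inner membrane, and the ATP synthase uses the returning protons to make ATP. Complex II is succinate dehydrogenase, which also belongs to the citric acid cycle, complex III is ubiquinol-cytochrome c reductase, and complex IV is cytochrome c oxidase. Heart muscle depends on this system for nearly all of its ATP. Several small complex IV subunits exist as a muscle isoform, expressed in heart and skeletal muscle, and a liver isoform, expressed more widely. Cox6a2, Cox7a1 and Cox8b are the muscle isoforms, and Cox6a1, Cox7a2 and Cox8a are their liver counterparts.

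The start regions of 5 of the 6 isoform genes, all but Cox6a2, are shown because the isoforms of a pair are separate genes, whose values are set against each other below. A window from 250 bases before to 50 bases after the RefSeq gene start (GRCm38.p6) could be matched for 35 of the 47 genes. Both strands were searched for letters associated with NRF1 (its palindromic consensus with any base at the sixth position, shown in capitals in Cox6a1, and a stricter form with T there, whose matches are also matches of the first), the oestrogen-related receptors (TCAAGGTCA), ETS factors such as GABPA (CCGGAAG) and MEF2 (its consensus with any 4 bases in the middle), and, added after the sequences had been seen, for a TATA box (TATAAA). Capitals mark matches on either strand. The windows were chr5:115348909-115349208 for Cox6a1 (minus strand), chr7:30183921-30184220 for Cox7a1 (plus strand), chr9:79759804-79760103 for Cox7a2 (minus strand), chr7:140900397-140900696 for Cox8b (minus strand) and chr19:7217567-7217866 for Cox8a (minus strand), each printed 5′ to 3′ along its gene.
Cox6a1: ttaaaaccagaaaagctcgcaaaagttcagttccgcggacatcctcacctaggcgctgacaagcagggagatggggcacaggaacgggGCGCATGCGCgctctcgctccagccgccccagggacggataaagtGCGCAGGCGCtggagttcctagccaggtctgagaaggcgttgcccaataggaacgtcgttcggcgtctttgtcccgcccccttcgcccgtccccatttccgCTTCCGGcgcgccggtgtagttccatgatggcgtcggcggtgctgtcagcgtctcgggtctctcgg
Cox7a1: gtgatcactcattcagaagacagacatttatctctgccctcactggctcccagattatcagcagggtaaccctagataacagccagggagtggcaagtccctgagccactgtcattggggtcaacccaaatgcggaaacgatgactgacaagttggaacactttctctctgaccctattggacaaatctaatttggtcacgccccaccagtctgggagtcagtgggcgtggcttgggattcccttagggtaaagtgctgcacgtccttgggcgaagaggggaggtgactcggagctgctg
Cox7a2: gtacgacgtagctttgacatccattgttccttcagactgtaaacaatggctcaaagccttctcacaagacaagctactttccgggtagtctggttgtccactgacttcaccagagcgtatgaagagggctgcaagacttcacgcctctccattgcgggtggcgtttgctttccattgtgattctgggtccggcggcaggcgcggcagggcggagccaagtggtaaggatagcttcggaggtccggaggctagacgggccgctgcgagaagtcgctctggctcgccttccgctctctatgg
Cox8b: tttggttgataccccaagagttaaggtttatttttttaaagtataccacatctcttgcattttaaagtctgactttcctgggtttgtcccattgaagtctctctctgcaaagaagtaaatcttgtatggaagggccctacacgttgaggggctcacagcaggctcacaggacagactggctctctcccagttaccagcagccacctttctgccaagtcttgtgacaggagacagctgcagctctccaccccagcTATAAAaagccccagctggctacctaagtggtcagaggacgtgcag
Cox8a: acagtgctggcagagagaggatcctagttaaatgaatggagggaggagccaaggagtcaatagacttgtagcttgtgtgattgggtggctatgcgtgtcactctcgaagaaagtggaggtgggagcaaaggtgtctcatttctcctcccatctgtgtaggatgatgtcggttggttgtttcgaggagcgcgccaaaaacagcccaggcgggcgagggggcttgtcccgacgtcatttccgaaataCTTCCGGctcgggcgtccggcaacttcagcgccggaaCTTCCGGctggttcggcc

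Cox6a1 held NRF1 letters 162 and 117 bases before the gene start, the first of them in the stricter form, and ETS letters 16 bases before it. Cox8a held ETS letters 5 bases before and 32 bases after its start. Cox7a1 and Cox7a2 held none of the searched letters, and Cox8b held only TATAAA, 4 bases after the annotated start. The Cox8b window had 2 CpG dinucleotides and 48.3% GC, and that of Cox7a1 had 7 and 53.0%. The windows of the liver isoforms Cox6a1, Cox7a2 and Cox8a had 32, 20 and 19 CpG. The median was 19 over the 35 subunit genes and 7 over all 32851 windows. Atp5c1, Atp5d and Atp5j had 2 windows each, and a subunit gene counted once if any window matched, while all windows were counted singly. NRF1 letters stood in a window of 10 of the 35 subunit genes (28.6%, against 4.6% of all windows), among them Sdha, Sdhd and Atp5g3. The stricter form stood in 4 (11.4%, against 0.971%). ETS letters stood in 13 (37.1%, against 8.86%). The oestrogen-related receptor letters were found in Atp5g3 and Sdhd (5.71%, against 0.423%), the MEF2 letters in Cox5b alone (2.86%, against 3.69%) and TATAAA in 3 (8.57%, against 13.6%). The NRF1 and ETS letters hold CpG, and the part of the higher CpG number of the subunit windows in these shares was not tested. A match describes letters in a window, not a bound site.

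The values are as deposited, whole numbers on a scale on which every library sums to between 999152 and 999382, and mean ± SD refers to n = 3 libraries. Whether this scale corrects for transcript length is not stated, so levels are compared between groups within a gene and not between genes. Mybpc3 checked the labels, at 1510, 1795 and 2039 in wild type, 133, 142 and 186 in mutants given saline and 1024, 1374 and 1332 in mutants given exABE8e. All 8 cardiomyocyte markers listed were in the tables, with summed values of 43450 to 50265 in wild type, 44750 to 53532 in saline mutants and 46431 to 48952 in treated mutants. Libraries within a group differed across the subunits as a whole. Wild type replicate 1 was the highest of its group for 41 of 46 subunit genes, with a median ratio of 1.17 to the other 2. Treated mutant replicate 1 was highest for 35, treated mutant replicate 2 lowest for 40, saline mutant replicate 2 highest for 32 and saline mutant replicate 3 lowest for 28. Xist, which is transcribed in female cells, was above 0 in 1 library of each group, at 119 in wild type replicate 1, 351 in saline mutant replicate 3 and 39 in treated mutant replicate 1. Counts over all subunit genes, and counts or medians of each complex, are therefore also given without these 3 libraries. Transcripts of the mitochondrial genome made up 20.0% to 24.1% of wild-type libraries, 17.0% to 20.9% of saline mutant libraries and 17.6% to 20.7% of treated mutant libraries.

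The first comparison asked what the mutation changed, with saline mutants set against saline wild type. Together the 47 genes made up 3.34%, 3.04% and 3.18% of the 3 wild-type libraries, 2.80%, 2.84% and 2.52% of the saline mutant libraries and 3.07%, 2.75% and 2.89% of the treated mutant libraries. Every saline mutant share lay below every wild-type share, and the treated shares overlapped both groups. The summed value was 85.3% ± 5.49 of the wild-type mean in saline mutants and 91.0% ± 5.05 in treated mutants. Genes with high values weigh most in such sums and shares. Atp5b and Atp5a1 had wild-type means of 5473 and 4811, within a mean total of 31857. Of the 46 genes tested, 41 were lower in saline mutants by the difference in mean log2(value + 1), where 40.9% of all 13632 genes tested were lower. In 21 of the 46 (45.7%) all 3 saline mutant values lay below all 3 wild-type values, against 8.78% of all genes tested, and in none did they lie above all 3 (12.8% of all genes). The median difference was -0.19 on the log2 scale over the subunit genes and 0.07 over all genes tested. Few single differences passed a threshold adjusted over all genes. Only Sdhc and Cox7a1 fell past the threshold of limma's Benjamini-Hochberg adjusted p of 0.05, which is 4.35% of the 46 and near the 3.14% of all genes called lower; none was called higher, where 4.56% of all genes were, and 7.7% of all genes were called in either direction. At an unadjusted p under 0.05, 10 were lower (21.7%, against 7.72% of all genes) and none higher (12% of all genes).

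Without the 3 libraries that held Xist, 34 of 46 genes were lower, 23 of them without overlap, and the median difference was -0.08, against 0.00 over all genes tested in that fit, where 50.7% were lower and 21.1% lower without overlap. By complex, the numbers lower and lower without overlap were then 4 and 3 of 4 for complex II, 7 and 4 of 9 for complex III, 11 and 6 of 16 for complex IV and 12 and 10 of 17 for complex V. The medians of the complexes in that fit were -0.28, -0.08, -0.09 and -0.06. Without wild type replicate 1 alone, 37 were lower and 21 did not overlap, against 40.4% lower and 13.0% lower without overlap over all genes. With factors from the median of ratios in place of the deposited scale, 44 were lower and 15 did not overlap, against 50.3% and 13.1% of all genes.

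**Figure D1:**
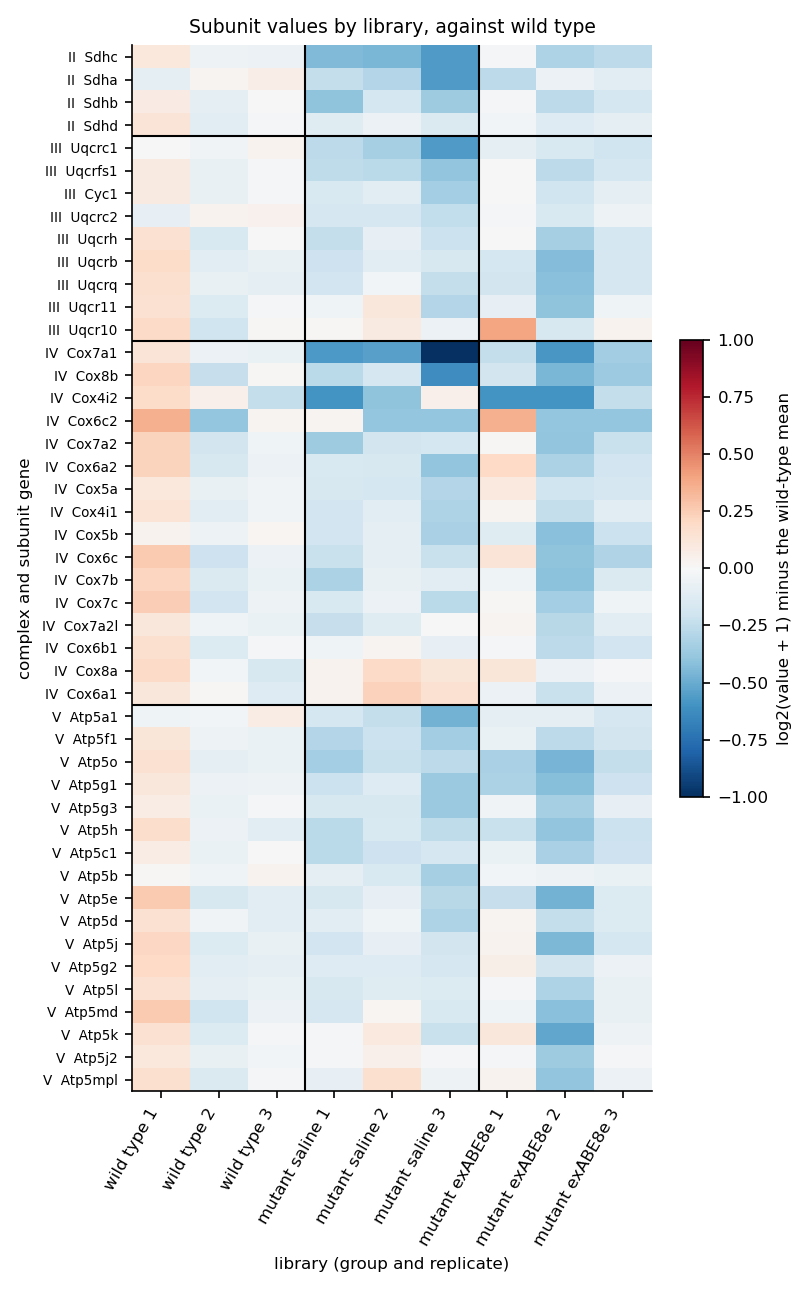
Each row is 1 of the 46 subunit genes tested, grouped by complex and ordered within it by the difference between saline mutants and wild type, and each column is 1 library. Colour is log2(value + 1) minus the mean of the 3 wild-type libraries, so blue is lower and red higher; Cox7a1 and Sdhc are blue in all 3 saline mutant libraries, and wild type replicate 1 is the reddest wild-type column.

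**Figure D2:**
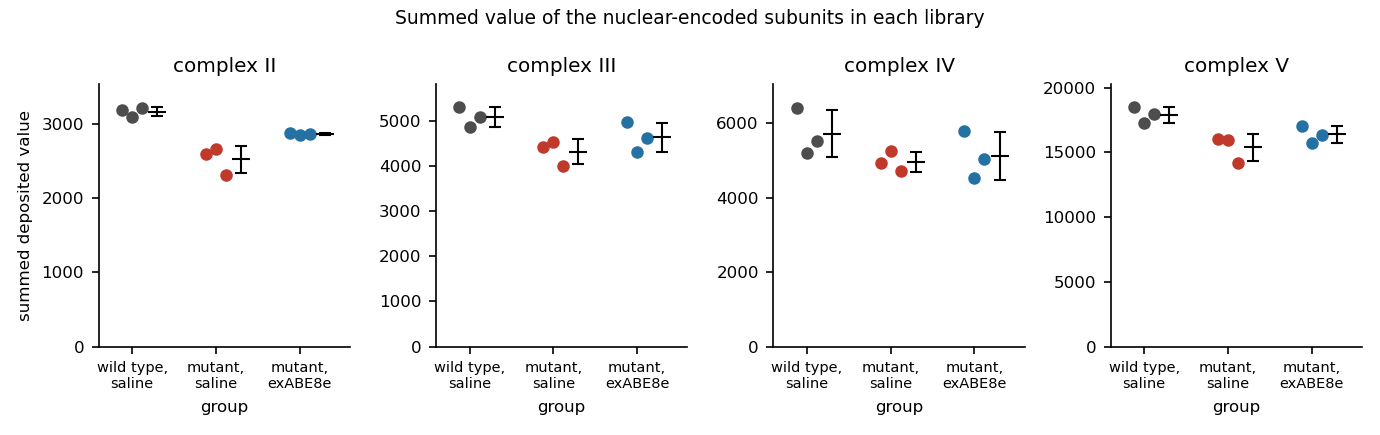
Points are the summed deposited values of the subunit genes of each complex in 1 library, and the bar beside them is the mean ± SD of 3 libraries, on axes that start at 0. For complex II the 3 groups do not overlap, with saline mutants between 2307 and 2653, treated mutants between 2851 and 2874 and wild type between 3093 and 3208.

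Complex II was the complex with the lowest median difference in saline mutants, -0.34 over its 4 genes. The summed value of the 4 genes was 3178, 3093 and 3208 in wild type, 2593, 2653 and 2307 in saline mutants, and after treatment 2874, 2851 and 2864. This put saline mutants at 79.7% ± 5.85 and treated ones at 90.6% ± 0.365 of wild type, and the 3 groups did not overlap. Sdha weighed most in this sum, with a wild-type mean of 1567 within a mean sum of 3160. Differences between complexes were not tested.

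Sdhc, which encodes a membrane anchor subunit that helps to bind haem and ubiquinone, had values of 480, 432 and 430 in wild type, 328, 326 and 301 in saline mutants, and in treated mutants 442, 360 and 372. All saline mutant values were below all others. Sdhc fell by 0.49 on the log2 scale in saline mutants (SE 0.0958, 95% interval -0.71 to -0.27, limma adjusted p 0.0164), to 71.2% ± 3.36 of the wild-type mean. The call was kept in 11 of 16 alternative fits. The fits that lost it included those without saline mutant replicate 2 (adjusted p 0.0769), saline mutant replicate 3 (0.0506), wild type replicate 3 (0.0523) or the Xist libraries (0.0534).

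Sdha, the flavoprotein that oxidises succinate, had values of 1470, 1593 and 1639 in wild type, 1326, 1279 and 1055 in saline mutants, and in treated mutants 1309, 1501 and 1456. The saline mutant values lay below all wild-type values, with a difference of -0.37 (SE 0.121, limma adjusted p 0.123) that did not pass the threshold. Sdhb, the iron-sulphur subunit, was likewise lower without overlap, at 521 to 610 in saline mutants against 646 to 729 in wild type. Sdhd, the other membrane anchor, overlapped, at 413 to 438 against 422 to 499.

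Of the 9 complex III genes, 8 were lower in saline mutants and 4 of these without overlap, with a median difference of -0.18. The 4 were Uqcrc1 and Uqcrc2, the core proteins that face the matrix, Uqcrfs1, the Rieske iron-sulphur protein, and Cyc1, cytochrome c1. Uqcrc1 had values of 1217, 1187 and 1250 in wild type, 1013, 966 and 820 in saline mutants, and in treated mutants 1138, 1094 and 1060. The groups did not overlap in any of the 3 comparisons, yet the difference in saline mutants, -0.39 (SE 0.112, limma adjusted p 0.0769), missed the threshold. Uqcrfs1 had values of 876, 780 and 812 in wild type, 689, 680 and 625 in saline mutants, and in treated mutants 818, 684 and 727. Its difference in saline mutants was -0.31 (SE 0.0988, limma adjusted p 0.115). Cyc1 was at 576 to 680 in saline mutants against 694 to 777 in wild type, and Uqcrc2 at 727 to 770 against 818 to 889. The small accessory subunits Uqcrh, Uqcrb, Uqcrq, Uqcr11 and Uqcr10 overlapped between the groups, and Uqcr10 stood at 100% ± 5.27 of its wild-type mean in saline mutants.

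For complex IV, 14 of the 16 genes tested were lower in saline mutants, 4 without overlap, with a median of -0.20. Cox4i1, Cox5a and Cox5b, nuclear subunits found in all tissues, were lower without overlap at 86.6% ± 5.85, 86.4% ± 4.27 and 87.0% ± 6.90 of their wild-type means. Cox6b1, Cox6c, Cox7b, Cox7c and Cox7a2l were at 87.6% to 97.6% of theirs and overlapped. Cox7a2l is known as a supercomplex assembly factor. Cox4i2, an isoform best known from lung, had values from 6 to 11 in all 9 libraries. Cox6b2, best known from testis, was at 0 or 1 and was not tested. Cox6c2 is annotated as a processed pseudogene, and its values of 2 to 4 may include reads of Cox6c.

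**Figure D3:**
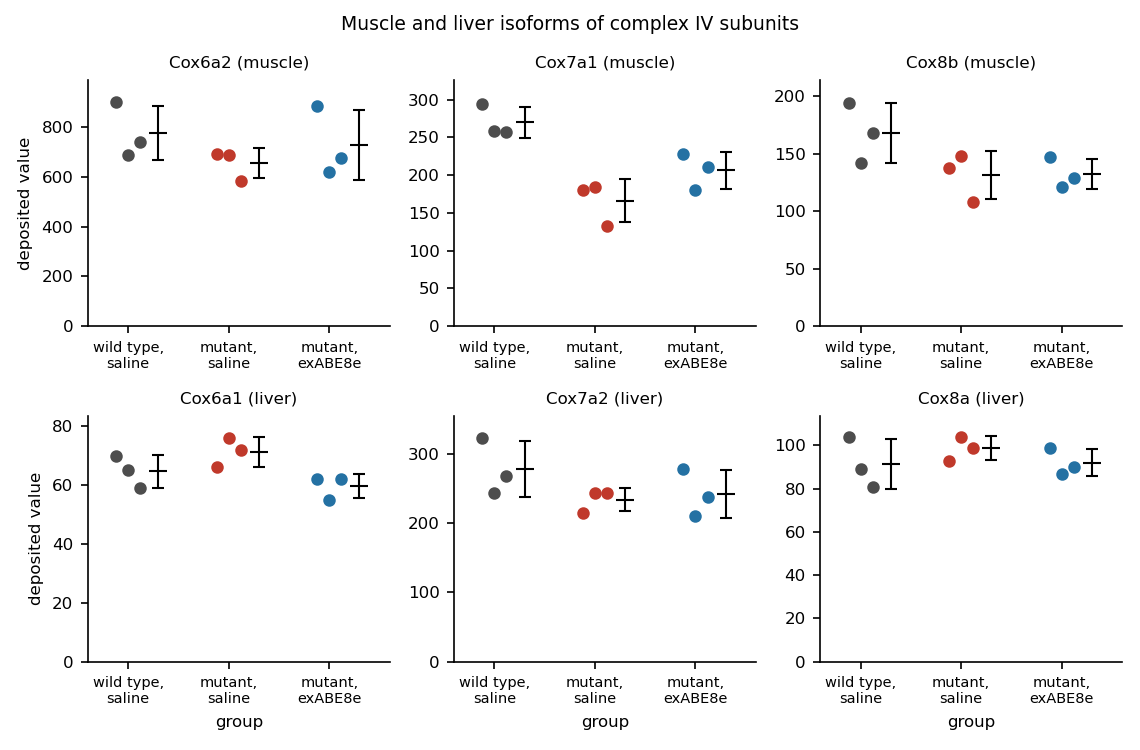
Points are deposited values of the muscle isoforms (upper row) and liver isoforms (lower row) in each library, and the bar beside them is the mean ± SD of 3 libraries, on axes that start at 0. Cox7a1 in saline mutants, between 133 and 185, is the one isoform whose saline mutant values lie clear of wild type, which is between 257 and 294.

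Among the isoforms, Cox7a1, the muscle form of a small subunit of the membrane domain, had the largest difference of all 46 genes. The gene lies at chr7:30184144-30186078 (GRCm38). Its values were 294, 259 and 257 in wild type, 181, 185 and 133 in saline mutants, and in treated mutants 228, 180 and 211. Both mutant groups lay below wild type without overlap, and they overlapped each other. Cox7a1 fell by 0.71 on the log2 scale in saline mutants (SE 0.140, 95% interval -1.03 to -0.39, limma adjusted p 0.0176), to 61.6% ± 10.7 of the wild-type mean. The call was kept in 14 of 16 alternative fits. It was lost without wild type replicate 1 (adjusted p 0.0780) and with limma's trend without a floor on the variance (0.0633). Without the Xist libraries the difference was -0.49 (adjusted p 0.0307).

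Cox7a2, the liver form of the same subunit, had values of 323, 243 and 268 in wild type, 215, 243 and 244 in saline mutants, and in treated mutants 278, 210 and 237. The groups overlapped, with a difference of -0.24 in saline mutants (SE 0.124, limma adjusted p 0.335). Cox6a2, the muscle form of a subunit known to bind adenine nucleotides, was at 900, 689 and 740 in wild type, 693, 689 and 585 in saline mutants, and in treated mutants 885, 619 and 676. These ranges overlapped in every comparison, and the difference in saline mutants was -0.24 (SE 0.130, limma adjusted p 0.365). Its liver counterpart Cox6a1 was at 70, 65 and 59 in wild type, 66, 76 and 72 in saline mutants, and in treated mutants 62, 55 and 62. It was one of 2 complex IV genes with a higher mean in saline mutants, with a difference of 0.14 (SE 0.109, limma adjusted p 0.544) that was within the replicate spread.

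Cox8b, the muscle form of another small subunit, had values of 194, 142 and 168 in wild type, 138, 148 and 108 in saline mutants, and in treated mutants 147, 121 and 129. The saline mutant value of 148 lay above the wild-type value of 142, and the difference in saline mutants of -0.35 (SE 0.154, limma adjusted p 0.249) did not pass the threshold. Cox8a, its liver form, was at 104, 89 and 81 in wild type, 93, 104 and 99 in saline mutants, and in treated mutants 99, 87 and 90. Its difference in saline mutants was 0.12 (SE 0.117, limma adjusted p 0.661). All 3 muscle isoforms thus had lower means in saline mutants than in wild type, and of the liver isoforms only Cox7a2 did. Single libraries moved these sizes. Cox6a2 differed by -0.13 without wild type replicate 1 and by -0.05 without the Xist libraries. Cox8b differed by -0.22 without saline mutant replicate 3 and by -0.11 without the Xist libraries, and Cox7a2 by -0.13 without wild type replicate 1 and by -0.16 without the Xist libraries.

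The ratio of the muscle to the liver isoform within a library does not depend on how libraries are scaled. Its size is not a ratio of molecules, since length correction is not stated, and only its differences between libraries are read. Cox6a2 over Cox6a1 was 12.9, 10.6 and 12.5 in wild type, 10.5, 9.07 and 8.12 in saline mutants, and in treated mutants 14.3, 11.3 and 10.9. The saline mutant ratios lay below those of both other groups, though narrowly, at 10.5 against the lowest wild-type ratio of 10.6. Cox7a1 over Cox7a2 was 0.910, 1.07 and 0.959 in wild type, 0.842, 0.761 and 0.545 in saline mutants, and in treated mutants 0.820, 0.857 and 0.890. Both mutant groups lay below wild type. Cox8b over Cox8a was 1.87, 1.60 and 2.07 in wild type, 1.48, 1.42 and 1.09 in saline mutants, and in treated mutants 1.48, 1.39 and 1.43. Again both mutant groups lay below wild type without overlap.

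On the log2 scale the ratios differed between saline mutants and wild type by -0.38 for Cox6a2 over Cox6a1 (SE 0.138), -0.47 for Cox7a1 over Cox7a2 (SE 0.200) and -0.47 for Cox8b over Cox8a (SE 0.176). The exact two-sided permutation p was 0.1 for each, the smallest that 3 against 3 allows, and 0.15 after Benjamini-Hochberg adjustment over 9 tests. No ratio could therefore pass a threshold of 0.05. Without the Xist libraries these differences were -0.24, -0.34 and -0.32. Without saline mutant replicate 3 the difference of Cox7a1 over Cox7a2 was -0.28.

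**Figure D4:**
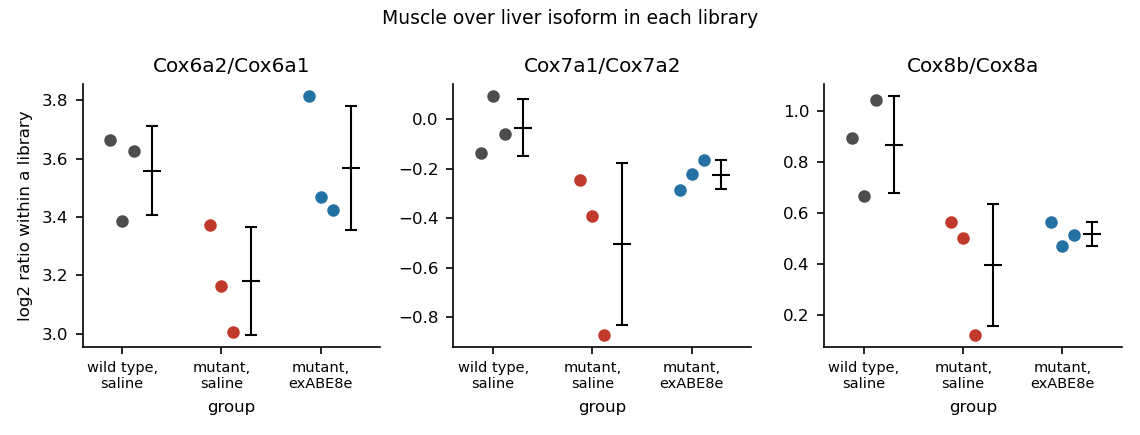
Points are the log2 ratio of the muscle to the liver isoform (pseudocount 1) in each library, with the mean ± SD of 3 libraries beside them; each panel has its own axis, and the axes do not start at 0. In all 3 pairs the saline mutant ratios lie below the wild-type ratios, and in Cox7a1/Cox7a2 and Cox8b/Cox8a the treated ratios do too.

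Of the 17 ATP synthase genes, 15 were lower in saline mutants, 10 of them without overlap, with a median of -0.17, and none passed the threshold. In the catalytic head, Atp5a1 (subunit alpha) had values of 4658, 4717 and 5057 in wild type, 4262, 4082 and 3455 in saline mutants, and in treated mutants 4485, 4518 and 4273. The groups did not overlap in any comparison, and the difference in saline mutants was -0.30 (SE 0.129, limma adjusted p 0.252). Atp5b (subunit beta, which holds the catalytic site) was at 4337 to 5128 in saline mutants against 5313 to 5597 in wild type. In the peripheral stalk, Atp5f1 (subunit b) had values of 1091, 968 and 962 in wild type, 821, 866 and 790 in saline mutants, and in treated mutants 962, 837 and 887. Its difference was -0.28 (SE 0.102, limma adjusted p 0.156), and the saline mutants did not overlap wild type. Atp5o, the oligomycin sensitivity conferral protein, and Atp5h (subunit d) of the same stalk were also lower without overlap, while Atp5j (coupling factor 6) overlapped. In the central stalk Atp5c1 (gamma) did not overlap, and Atp5d (delta) and Atp5e (epsilon) did. The genes Atp5g1, Atp5g2 and Atp5g3 encode the same c subunit of the rotor ring and could share reads. All 3 were lower without overlap, at 84.8% ± 7.25, 90.1% ± 1.56 and 85.4% ± 6.95 of wild type. Of the small membrane subunits, Atp5l was lower without overlap, and Atp5j2, Atp5k, Atp5md and Atp5mpl were at 92.6% to 100% of wild type and overlapped.

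**Figure D5:**
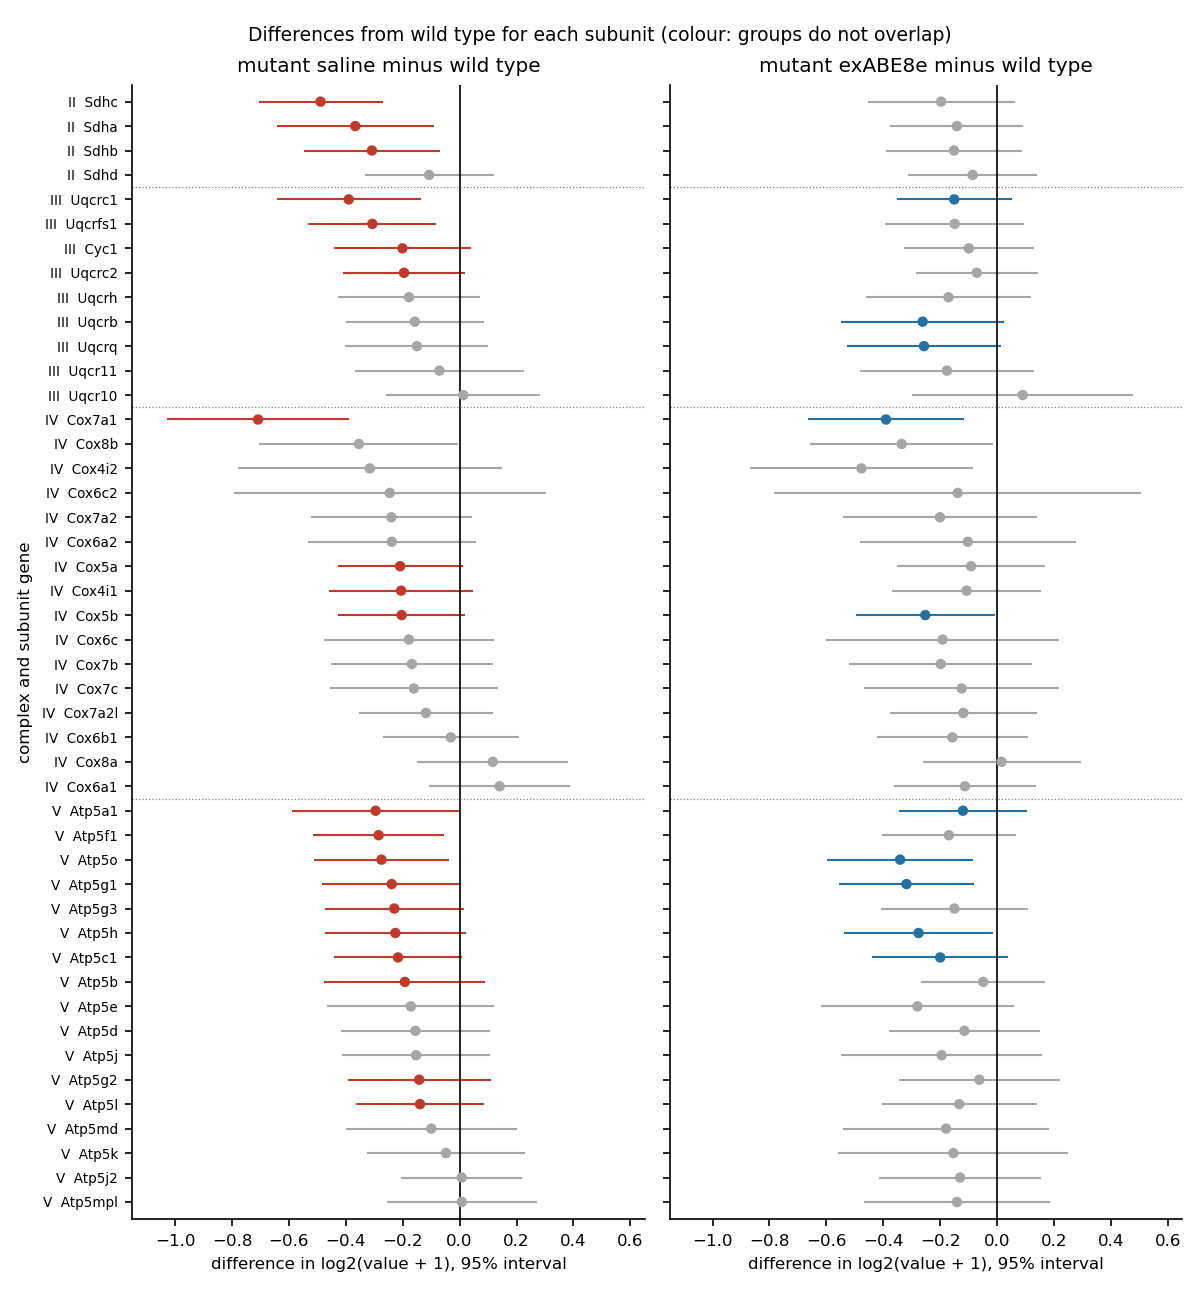
Points are differences in mean log2(value + 1) from wild type for each of the 46 genes, with their 95% intervals, for saline mutants (left) and exABE8e-treated mutants (right), which share the wild-type libraries. Coloured points mark genes whose groups do not overlap, 21 on the left and 10 on the right; the interval of Cox7a1 lies farthest from 0 on the left.

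The second comparison asked what treatment of mutants changed, and set treated against saline mutants, which also served the first comparison. No group received the virus alone or an inactive editor. Effects of the virus, of the editor and of correcting the mutation therefore cannot be told apart. None of the 46 genes was called, and only 2 of 13636 genes tested were (0.0147%), 1 higher (0.00733%) and 1 lower (0.00733%). At an unadjusted p under 0.05 there were 2, Sdhc higher (where 3.53% of all genes were) and Cox6a1 lower (where 4.76% were). Of the 46, 26 were higher and 20 lower, where 59.4% of all genes were lower, and the median was 0.02, against -0.02 over all genes. Treated values lay above all saline mutant values for Sdhc, Uqcrc1, Uqcrc2, Atp5a1 and Atp5b (10.9%, against 5.48% of all genes). They lay below them for Cox6a1 alone (2.17%, against 4.34%). The difference of Sdhc was 0.29 (SE 0.112, 95% interval 0.04 to 0.55, limma adjusted p 0.550), that of Uqcrc1 0.24 (SE 0.115, limma adjusted p 0.641) and that of Cox7a1 0.32 (SE 0.153, 95% interval -0.03 to 0.67, limma adjusted p 0.640). The difference of Cox7a1 was 0.17 without saline mutant replicate 3 and 0.09 without the Xist libraries. Cox6a1 differed by -0.25 (SE 0.110, limma adjusted p 0.592).

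By complex the medians of the second comparison were 0.19 for complex II, 0.08 for complex III, 0.01 for complex IV and -0.04 for complex V. These counts moved with the libraries used. Without treated mutant replicate 1, 31 of 46 were lower (50.7% of all genes), and without treated mutant replicate 2, 11 were (58.5% of all genes). Without the Xist libraries 34 were lower, with a median of -0.08, against 35.2% of all genes and a median of 0.04. The medians of complexes II to V were then 0.12, -0.10, -0.09 and -0.09. In that fit 0 of 4, 0 of 9, 7 of 16 and 3 of 17 genes of these complexes were lower without overlap. The numbers higher without overlap were 2, 2, 0 and 2. Of all genes, 8.80% were lower and 22.5% higher without overlap. Median-of-ratios factors left 1 gene above all saline mutant values, where 7.64% of all genes were. Of the isoform ratios, Cox6a2 over Cox6a1 was higher in treated mutants by 0.39 (SE 0.163, exact permutation p 0.1, adjusted 0.15), without overlap. Cox7a1 over Cox7a2 differed by 0.28 (SE 0.191, exact permutation p 0.2, adjusted 0.257) and Cox8b over Cox8a by 0.12 (SE 0.141, exact permutation p 0.6, adjusted 0.675), both with overlap.

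The third comparison set treated mutants against wild type, and shares its libraries with the other 2. None of the 46 genes was called, where 134 of 13554 genes were (0.989%). At an unadjusted p under 0.05, 7 were lower (4.78% of all genes) and none higher (7.74% of all genes). Of the 46, 44 were lower (48.6% of all genes), with a median of -0.15 against 0.01, and 10 were lower without overlap (21.7%, against 5.43%) and none higher without overlap (9.13% of all genes). Those 10 were Uqcrc1, Uqcrb, Uqcrq, Cox7a1, Cox5b, Atp5a1, Atp5o, Atp5g1, Atp5h and Atp5c1. Cox7a1 stood at 76.4% ± 9.01 of the wild-type mean, with a difference of -0.39 (SE 0.117, 95% interval -0.66 to -0.12, limma adjusted p 0.226). Cox8b differed by -0.34 (SE 0.138, limma adjusted p 0.376) and Sdhc by -0.20 (SE 0.111, limma adjusted p 0.513). The median of each of the 4 complexes was -0.15. Without treated mutant replicate 1 the number lower without overlap was 27, where 7.93% of all genes were. It was 18 without wild type replicate 2 (7.12% of all genes) and 29 without the Xist libraries (10.9% of all genes). The medians of complexes II to V without the Xist libraries were -0.15, -0.17, -0.16 and -0.16. The ratio Cox7a1 over Cox7a2 was lower by 0.19 on the log2 scale than in wild type (SE 0.0750) and Cox8b over Cox8a by 0.35 (SE 0.112), each with an exact permutation p of 0.1 and 0.15 adjusted. Cox6a2 over Cox6a1 differed by 0.01 (SE 0.151, exact permutation p 1).

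Other genes of the same pathway were counted from lists, to be read against all genes tested in saline mutants and wild type, of which 40.9% were lower and 3.14% called lower, with a median of 0.07. Of 41 assembly factors of complexes II to V, 36 were tested in saline mutants against wild type, 21 were lower, 1 was called higher and none lower, and the median was -0.01. The one called was Cox19, which helps to deliver copper to complex IV, with values of 42, 35 and 34 in wild type, 68, 73 and 63 in saline mutants, and in treated mutants 67, 48 and 51. It rose by 0.86 in saline mutants (SE 0.120, limma adjusted p 0.00319). Of 16 genes for mobile carriers and electron transfer, which bring electrons to complexes III and IV, 15 were tested and all 15 were lower in saline mutants, 2 of them called, with a median of -0.30. Coq9, needed to make ubiquinone, was at 426, 405 and 429 in wild type, 322, 323 and 272 in saline mutants, and in treated mutants 379, 362 and 364. It fell by 0.46 (SE 0.103, limma adjusted p 0.0296) and the 3 groups did not overlap. Etfa, a subunit of the flavoprotein that passes electrons from fatty acid oxidation to ubiquinone, was at 618, 561 and 607 in wild type, 469, 450 and 396 in saline mutants, and in treated mutants 509, 526 and 509. It fell by 0.44 (SE 0.104, limma adjusted p 0.0356), and its 3 groups did not overlap either.

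Of the 15 carrier genes tested, 1 was lower in treated than in saline mutants, and the median was 0.22, with none called. All 6 subunits of complexes III to V that the mitochondrial genome encodes were lower in saline mutants, with 1 called and a median of -0.31. That one was mt.Co3, at 3444, 2248 and 2896 in wild type, 1498, 1399 and 1848 in saline mutants, and in treated mutants 2799, 1361 and 1966, and it fell by 0.84 (SE 0.177, limma adjusted p 0.0221). These transcripts carry short tails, and selection on oligo(dT) can affect them unlike other transcripts. Of 9 carriers and channels for ATP and phosphate, 7 were tested and none called, with a median of -0.23, and of 19 transcription regulators none was called, with a median of 0.03. No gene of these 5 lists was called in the other 2 comparisons.

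Markers of cell types were counted in the same way, to be read against 3.14% of all genes called lower and 4.56% called higher in saline mutants. Fibroblast markers summed to 1560 to 2216 in wild type, 2356 to 3764 in saline mutants and 1752 to 2392 in treated mutants. Of the 6 genes of that list, 5 were higher in saline mutants and Col1a1, a fibrillar collagen, was called. The 6 macrophage markers were all higher in saline mutants, and none was called. Their sums overlapped, at 344 to 495 in wild type, 387 to 741 in saline mutants and 387 to 488 in treated mutants. The 6 endothelial markers were all lower and none was called, with overlapping sums of 1637 to 1988, 1384 to 1807 and 1323 to 1642 in the same order. Smooth muscle markers summed to 228 to 370, 138 to 152 and 193 to 218, with Acta2 called lower. Acta2 alone made up most of that sum, with means of 258, 118 and 172. Myh11 overlapped, with a difference of -0.31 in saline mutants (SE 0.234, limma adjusted p 0.526). Cnn1, at 1 or 2 in every library, differed by 0.19. Haemoglobin and other red cell genes summed to 104 to 313, 69 to 85 and 140 to 158, with 2 of 5 called lower. Of 8 cardiomyocyte markers, 4 were lower in saline mutants and 1, Nppa, was called higher. Tnni3 differed by -0.50 (SE 0.128, limma adjusted p 0.0505) and Pln by -0.41 (SE 0.124, limma adjusted p 0.0975), both lower without overlap. Actc1 was higher without overlap, at 12481 to 13680 in saline mutants against 9667 to 10722 in wild type. Nppa, the natriuretic peptide of the atria that stressed ventricles also make, is on the atrial list as well, and both atrial genes in the tables were called higher. Nppa had values of 61, 42 and 45 in wild type, 356, 858 and 1489 in saline mutants, and in treated mutants 256, 187 and 155. It rose by 3.95 (SE 0.432, limma adjusted p 0.00110). Myl4, the atrial essential light chain of myosin, was at 1 in all wild-type libraries, at 3, 3 and 5 in saline mutants, and in treated mutants at 2, 2 and 3. It rose by 1.19 (SE 0.220, limma adjusted p 0.0125), on steps of 1. Of the 3 brown adipocyte genes in the tables Dio2, a deiodinase that activates thyroid hormone, was called higher, by 2.45 (SE 0.484, limma adjusted p 0.0173). Its values were 1, 4 and 2 in wild type, 10, 11 and 36 in saline mutants, and in treated mutants 13, 5 and 14. Of the same list, Cidea differed by 0.02 (SE 0.141, limma adjusted p 0.981) and Ppara by 0.42 (SE 0.272, limma adjusted p 0.444), both with overlap. The part of these shifts in the subunit results was not tested. The adipocyte genes Adipoq, Plin1, Ucp1 and Elovl3, the skeletal muscle genes Myh1, Myh2 and Actn3 and the atrial genes Myl7, Sln and Bmp10 were not listed in the tables used here.

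The authors' deposited table of saline mutants against wild type gave log2 fold changes below 0 for 45 of the 47 genes, and the tables for the treated groups gave 17 against saline mutants and 46 against wild type. The shares below 0 over all genes of these deposited tables were not counted. The column named as adjusted p in the authors' deposited tables equalled the unadjusted normal p of their statistic within 1e-06. Adjusted here over all genes of each deposited table, these p-values left Cox7a1 and Sdhc under 0.05 in saline mutants against wild type and no subunit gene in the other 2. Over all genes, 312 of 15587 were under 0.05 in saline mutants against wild type. Treated mutants had 10 of 15575 against saline mutants and 78 of 15412 against wild type. In the authors' deposited table the log2 fold change of Cox7a1 was -0.76 and that of Sdhc was -0.56.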

How the data were processed

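PolyA RNA of 9 mouse heart samples was sequenced, and for each pair of groups the authors deposited 1 full table. The submitters' processing notes name HISAT2, HTSeq, DESeq2 and mm10, with no role, order or version. The deposited value per gene and library was treated as a score. It is a whole number, but every library sums to between 999152 and 999382, as a per-million unit rounded by the authors would, and neither labels nor headers give its unit. The depth is unknown, and precision rests on 3 libraries a group. The deposited mean signal, the deposited log2 fold changes with their standard errors, the authors' test statistic (a score) and the deposited p-value columns are the authors' own comparisons.

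The main test was limma 3.58.1 (R 4.3.3), run on log2(value + 1), a scale that understates changes of low genes. Each pair of groups had its own fit over genes with a mean of at least 1. Residual variances below the variance of rounding (1/12 of a squared unit) were raised to it, the prior variance followed a trend, and its degrees of freedom came from genes with a mean of at least 30. Genes were called at a Benjamini-Hochberg adjusted p under 0.05 over all genes tested. The script was tested on simulated data. A gene that a table does not list counts as 0. Isoform ratios were compared by exact permutation in Python 3.11.15 with scipy 1.17.1. Positions are from GENCODE M21 and promoter windows from RefSeq (GRCm38.p6).

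The members, lists, tests and alternatives were chosen with earlier results of these data known. Fold changes with errors are given for the 6 isoforms, for called members, for the 2 members of each complex with the largest difference between saline mutants and wild type (12 genes), and for called genes of the lists. Some marker genes that were not called are given with fold changes too. Alternatives were pseudocounts of 0.1 and 10, no filter or a mean of at least 10, median-of-ratios factors, totals without mitochondrial transcripts, other variance steps, a replicate block, and fits without each replicate or without the libraries with Xist. Counts of lower and non-overlapping genes under these were added after seeing the data.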

Additional observations from a re-analysis of the deposited data

How the results depend on the processing

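With 3 libraries a group and values rounded to whole numbers, small differences could not be resolved. Genes with group means under 10, such as Cox4i2, Cox6b2 and Cox6c2, rest on steps of 1. Of the single-gene values under the alternatives, 555 kept their direction and their side of the threshold, 14 turned direction and 7 lost a call. No subunit gene was called in treated mutants against either other group under any of 16 alternatives. In saline mutants against wild type the number called was 1 in place of 2 with limma's trend without a variance floor (Sdhc), with the replicate block (Cox7a1) and without the libraries with Xist (Cox7a1), and 1 to 2 when 1 replicate was left out. With the replicate block the adjusted p of Sdhc was 0.0561; the block changed no other call of a subunit gene. The replicate numbers were not taken as pairs: same-numbered libraries of saline mutants and wild type correlated at -0.108, -0.0762 and -0.271 over their deviations from the group means, those of treated and saline mutants at -0.0150, 0.142 and 0.136, and those of treated mutants and wild type at 0.454, 0.110 and 0.00546.

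Without the libraries with Xist the median in saline mutants against wild type was -0.0850. In treated against saline mutants 34 subunit genes were then lower, and 11 to 31 when 1 replicate was left out. In treated mutants against wild type, log2 Cox6a2/Cox6a1 was -0.0026 with a pseudocount of 10, -0.0590 without the libraries with Xist, and -0.112 to 0.0819 with 1 replicate left out. In treated against saline mutants, log2 Cox8b/Cox8a was -0.0417 without the libraries with Xist, and -0.0175 to 0.203 with 1 replicate left out. Without the libraries with Xist, the differences between treated and saline mutants were -0.0951 for Cox6a2, -0.0349 for Cox7a2 and -0.193 for Cox8b. With 1 replicate left out they ranged from -0.0151 to 0.242 for Cox6a2, from -0.0661 to 0.135 for Cox7a2 and from -0.115 to 0.111 for Cox8b. Against wild type, Cox6a2 ranged from -0.253 to 0.0082 and Cox8a from -0.0660 to 0.112 with 1 replicate left out, and Cox8a was -0.0149 with median-of-ratios factors and -0.0307 with totals without mitochondrial transcripts. The cause of these shifts was not tested.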
